A study of Danio rerio with 6 samples.

Results

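The genes of cartilage, bone and the collagen fibres of connective tissue were examined in RNA from whole embryos of the zebrafish, with and without miR-34a, at 72 hours post-fertilization (hpf). The set held 48 symbols, listed by role: collagens, other matrix proteins and regulators of chondrocytes, genes of osteoblasts, and matrix genes of fibroblasts. The symbols were matched, ignoring case, to the Ensembl gene IDs of the count table. Of the 48, 29 matched by name and 3 more (*hapln1b*, *sox9b* and *postnb*) through IDs that the study pairs with these names, *postnb* from its lists of genes it called. A further 14 were present only under a human-style name without the letter of a paralog, and these are printed with that name and their ID. Which paralog is which cannot be told from the name alone. Of these names, COL2A1, MATN3 and COL10A1 each stood for 2 IDs. Some others, such as SOX9, had their other paralog matched under its own symbol (*sox9b*). One symbol, *fmoda*, stood against 2 IDs and was kept apart, and *comp* found no match in the names used here. This left 46 IDs of the 32520 in the table, of which 44 were among the 19240 genes that passed the filter on low counts.

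The study compared 3 libraries of wild-type with 3 of *miR-34a-/-* embryos, 30 embryos being pooled for each. The gene of the microRNA miR-34a had been deleted with CRISPR/Cas9 and 6 guide RNAs. Both groups were in the *casper* background, which lacks most pigment. The mutants came from a homozygous line of their own and not from the same parents as the wild-type, so differences between the lines cannot be told apart from the deletion. Total counts ran from 10273343 to 16369150 per library, and the miR-34 genes had 0 counts in all 6 libraries, so the genotype labels could not be checked on the deleted gene. Nothing in the labels says that the pools of a genotype came from separate crosses, so the p-values measure the spread between these pools.

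In the zebrafish larva the first skeleton is cartilage, which builds the jaw, the gill arches, the braincase and the pectoral fin. Chondrocytes under the control of Sox9, Sox5 and Sox6 secrete collagen fibrils of types II, IX and XI, and bind them into a hydrated gel with the proteoglycan aggrecan, link proteins and matrilins. Bone follows when osteoblasts, specified by Runx2 and Sp7, lay down a type I collagen matrix and mineralise it. Type I and type V collagen, with the small proteoglycans decorin and lumican, also form the fibres of dermis and other connective tissue. Some of these genes are used outside the skeleton too, type II collagen in the notochord sheath and the ear and type I collagen in the skin. In RNA from whole embryos, fewer cells of a type and less RNA per cell cannot be told apart.

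No member was called at 72 hpf. A gene was called when the edgeR quasi-likelihood test gave a Benjamini-Hochberg adjusted p under 0.05 over all genes tested and the fitted fold change was over 1.5 either way, and 362 of 19240 genes met both (1.88%). Of the 44 members tested, 0 were called and 0 had an adjusted p under 0.05 without the fold threshold, which 2.6% of all genes had. DESeq2 called 0 as well, and so did the edgeR likelihood ratio test. At an unadjusted p under 0.05 there were 7 members in edgeR, against 15.3% of all genes. In DESeq2 there were 8, against 10.7% of all genes in that test. The 7 were COL2A1 (ENSDARG00000069093), *col9a1b*, both MATN3 IDs and *col1a1a*, which had higher levels in the mutant, and *sox6* and *phospho1*, which had lower levels. Among the genes it called at this stage, the study reports anatomical terms for cartilage as enriched only in those lower in the mutant. These terms come from an annotation of genes by anatomy and not from the member list used here. Which genes carried the terms was not tested.

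The fitted differences were small. They ran from -0.56 on the log2 scale for *phospho1* to 0.63 for MATN3 (ENSDARG00000069265), with a median of 0.11, against -0.01 over all genes tested. The fitted value was above 0 for 31 members and below 0 for 13, while 48.1% of all genes tested were above 0. These 44 values come from the same 6 libraries and are not independent of each other. For 34 of the 44 members, the 95% interval of the fold change lay wholly within 1.5-fold either way. The 10 with wider intervals were 5 genes of cartilage matrix and 5 of osteoblasts. All 9 cartilage collagens, all 5 chondrocyte regulators and all 9 fibroblast matrix genes lay within it.

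**Figure D1:**
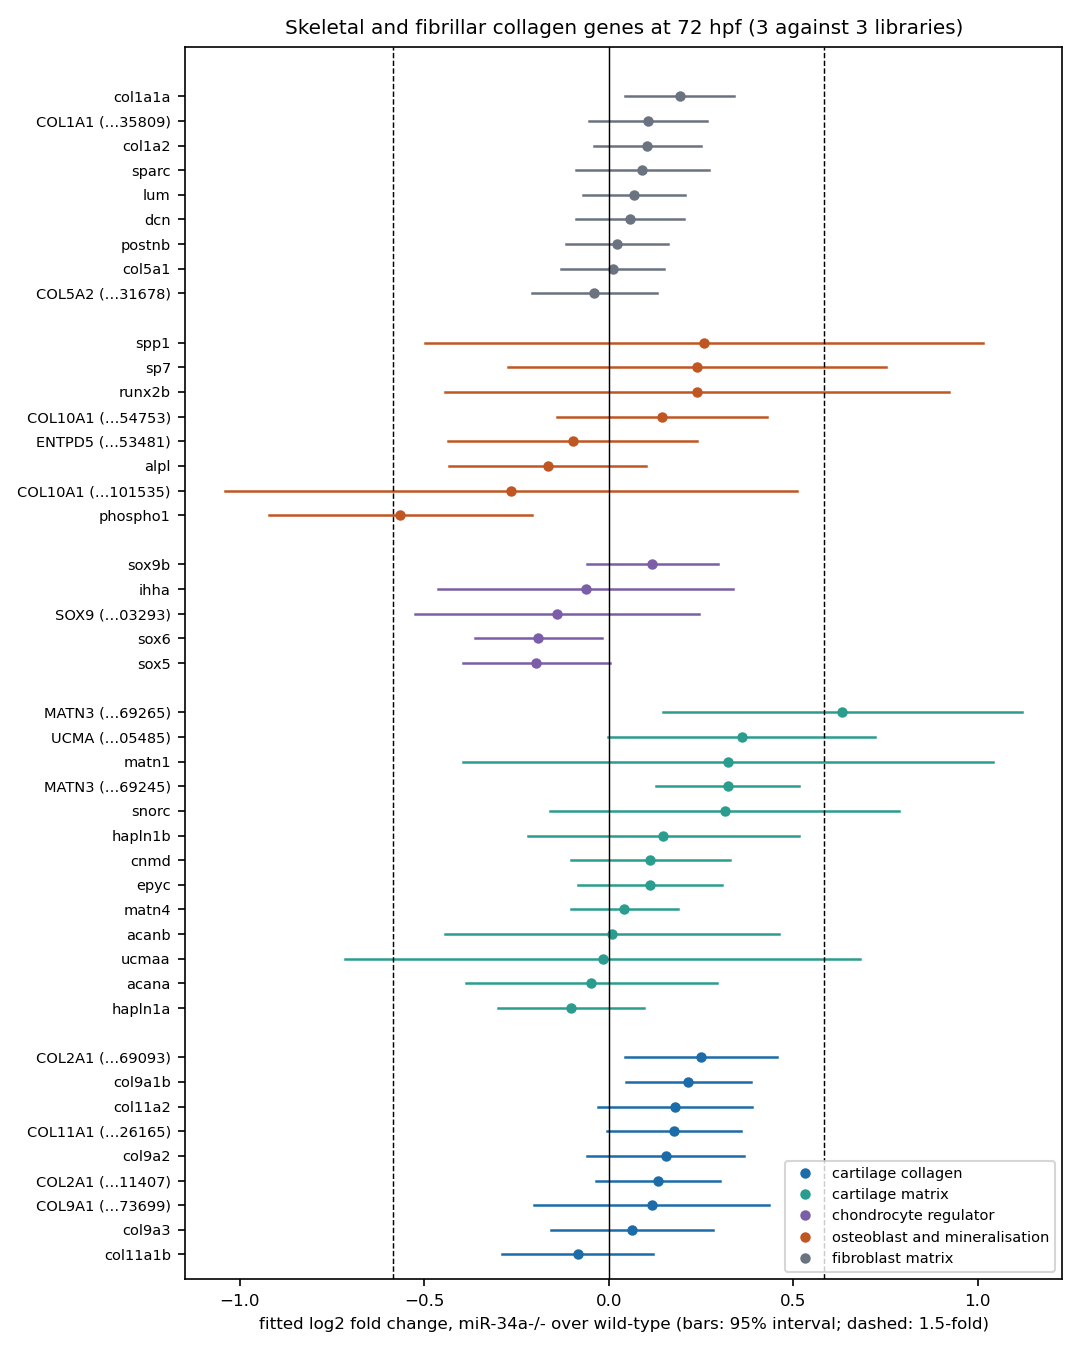
Fitted log2 fold change of *miR-34a-/-* over wild-type (horizontal axis) for the 44 tested members, 1 a line, with the 95% interval as a bar; colours mark the 5 groups and dashed lines mark 1.5-fold. The cartilage collagens and fibroblast matrix genes sit within the dashed lines with their intervals, and MATN3 (ENSDARG00000069265) at 0.63 and *phospho1* at -0.56 lie farthest out.

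Summed over the 46 IDs, the set took up between 2.06% and 2.35% of all counts in a library. The sum, in CPM (counts scaled to a common library size with TMM factors), was 22606, 20299 and 20292 for wild-type (replicates 1, 2 and 3). For *miR-34a-/-* it was 22048, 24172 and 23489. The mutant mean was 110% of the wild-type mean, and the genotypes overlapped through wild-type replicate 1 and mutant replicate 1. Among the groups, the summed level of the fibroblast matrix genes was the only one of the 5 that did not overlap, at 9675 to 10232 CPM in wild-type and 10307 to 10900 CPM in the mutant. Its shift lay mostly in 3 type I collagen genes, the highest of the group. Their wild-type and mutant means were 3144 and 3591 CPM (*col1a1a*), 1998 and 2152 CPM (COL1A1), and 1376 and 1480 CPM (*col1a2*). Of the other genes in this group only *lum* did not overlap. Over all genes tested, 11% were without overlap and higher in the mutant. The summed level of the cartilage collagens was 8499 ± 836 CPM (SD, n = 3) in wild-type and 9661 ± 501 CPM (SD, n = 3) in the mutant, with overlap. The cartilage matrix and osteoblast sums also overlapped, at 109% and 106% of the wild-type mean, and the chondrocyte regulators overlapped at 92.9%.

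**Figure D2:**
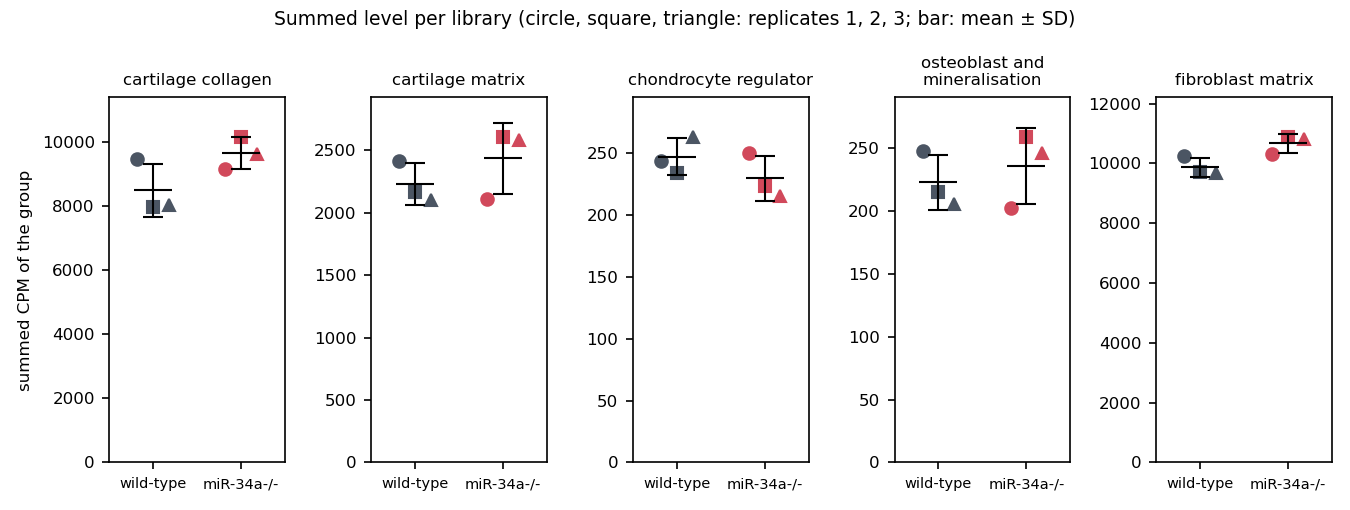
Summed CPM of each of the 5 groups of genes (vertical axes, from 0) in the 3 wild-type and 3 *miR-34a-/-* libraries, with the mean and SD as bars. The fibroblast matrix sums of the mutant, 10307 to 10900 CPM, lie above those of the wild-type, and the other 4 groups overlap. The genes with the highest levels in the fibroblast group are those of type I collagen.

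Among the cartilage collagens, 8 of 9 had a fitted value above 0, with a group median of 0.15. Type II collagen, the main fibril of cartilage, is represented by 2 COL2A1 IDs. COL2A1 (ENSDARG00000069093) was at 3527, 2957 and 2939 CPM in wild-type replicates 1 to 3 and at 3430, 3952 and 3831 CPM in mutant replicates 1 to 3. The genotypes overlapped because mutant replicate 1 was below wild-type replicate 1, and the fitted fold was 1.19 (log2 0.25 ± 0.09, SE), with an adjusted p of 0.228 in the edgeR quasi-likelihood test. The 95% interval was 1.03-fold to 1.37-fold, the highest upper bound of any collagen in this group. COL2A1 (ENSDARG00000011407) was at 1005, 863 and 900 CPM in wild-type and 985, 1050 and 1002 CPM in the mutant, which overlap, with a fitted value of 0.13 and an interval of 0.977-fold to 1.23-fold. Of the counts of the COL2A1 pair, ENSDARG00000069093 held 76.6% to 77.8% in wild-type and 77.7% to 79.3% in the mutant. These shares overlapped, and reads of such copies may have been divided between them in counting.

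Type XI collagen sits in the core of the type II fibril and sets its width. COL11A1 (ENSDARG00000026165) was at 1475, 1267 and 1295 CPM in wild-type and 1550, 1595 and 1418 CPM in the mutant. Only wild-type replicate 1 reached into the mutant range, and the fitted fold was 1.13 with an adjusted p of 0.340. For *col11a2* the levels were 820, 666 and 671 CPM in wild-type and 782, 876 and 786 CPM in the mutant, again with wild-type replicate 1 inside the mutant range. Its fitted fold was 1.13, with an interval of 0.98-fold to 1.31-fold. The remaining chain, *col11a1b*, was the 1 cartilage collagen with a fitted value below 0, at -0.08.

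Type IX collagen coats the outside of the fibril and links it to the rest of the matrix. *col9a1b* was at 584, 531 and 524 CPM in wild-type and 679, 629 and 596 CPM in the mutant. All 3 mutant libraries were above all 3 wild-type libraries, with a fitted fold of 1.16 (log2 0.22 ± 0.08, SE) and an adjusted p of 0.208. The other 3 chains, COL9A1 (ENSDARG00000073699), *col9a2* and *col9a3*, overlapped and had fitted values of 0.12, 0.15 and 0.06. In mutant replicate 1 the chains did not keep the proportions of the other libraries. Of the counts of the 4 type IX genes, which depend on transcript length and are read only between libraries, *col9a1b* took 31.5% there and 24.7% to 26.7% in the other 5 libraries. COL9A1 (ENSDARG00000073699) took 13.2% there and 15.1% to 16.6% in the other 5.

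The cartilage matrix genes held the 2 MATN3 IDs, which code for matrilin-3, an adaptor that bridges collagen fibrils and aggrecan. MATN3 (ENSDARG00000069245) was at 154, 140 and 143 CPM in wild-type and 160, 190 and 196 CPM in the mutant. The groups did not overlap, with mutant replicate 1 just above wild-type replicate 1. The fitted fold was 1.25 (log2 0.32 ± 0.09, SE), with an interval of 1.09-fold to 1.43-fold, and its adjusted p of 0.0991 was the lowest of any member in the quasi-likelihood test. In DESeq2 its adjusted p was 0.0367 and in the edgeR likelihood ratio test 0.0405, both with a fold under 1.5. MATN3 (ENSDARG00000069265) was at 22.5, 18.4 and 16.7 CPM in wild-type and at 19.0, 36.4 and 34.5 CPM in the mutant. Mutant replicates 2 and 3 were above every wild-type library and mutant replicate 1 was within the wild-type range. Its fitted fold of 1.55 (log2 0.63 ± 0.22, SE) was the largest of the set, with an adjusted p of 0.197 and an interval of 1.11-fold to 2.17-fold.

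UCMA (ENSDARG00000005485), whose product is a small Gla protein secreted by chondrocytes, was at 85.8, 75.3 and 72.8 CPM in wild-type and 71.0, 113 and 117 CPM in the mutant. Here mutant replicate 1 was the lowest of the 6 libraries and the other mutants the highest. The fitted fold was 1.28, with an adjusted p of 0.328 and an interval of 0.999-fold to 1.65-fold. *matn4*, another matrilin, was at 680, 651 and 681 CPM in wild-type and 723, 682 and 668 CPM in the mutant. Its levels overlapped, with a fitted fold of 1.03 and an interval of 0.931-fold to 1.14-fold. The remaining 9 genes of the group had fitted values from -0.10 (*hapln1a*, a link protein) to 0.32 (*matn1*), and none had an unadjusted p under 0.05. Aggrecan, the large proteoglycan that holds water in cartilage, had fitted values of -0.05 (*acana*) and 0.01 (*acanb*).

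The regulators of chondrocytes had a median of -0.14, with 4 of 5 fitted values below 0. *sox6*, which acts with Sox5 as a partner of Sox9 on the collagen genes, was at 65.5, 65.0 and 74.2 CPM in wild-type and 61.0, 57.4 and 60.8 CPM in the mutant. All 3 mutant libraries were below all 3 wild-type libraries, at a fitted fold of 0.876 (log2 -0.19 ± 0.08, SE), an interval of 0.778-fold to 0.987-fold and an adjusted p of 0.273. *sox5* was at 86.5, 83.5 and 93.3 CPM in wild-type and 84.3, 77.6 and 68.2 CPM in the mutant. Mutant replicate 1 was within the wild-type range, and the fitted fold was 0.873 with an adjusted p of 0.334. The Sox9 genes had fitted values of 0.12 (*sox9b*) and -0.14 (SOX9, ENSDARG00000003293), and *ihha*, a hedgehog signal of maturing chondrocytes, of -0.06. All of these overlapped between genotypes.

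Several bone markers were at or near 0. *bglap*, which codes for osteocalcin, a late marker of bone-forming cells, was at 0 counts in every library, a result that still allows 3 counts, or 0.183 to 0.292 CPM. RUNX2 (ENSDARG00000040261) had 3 to 6 counts per library and did not pass the filter. Of the genes tested, *runx2b*, *sp7* and *spp1* had levels of 0.98 to 4.56 CPM in all libraries, and their 95% intervals reached past 1.5-fold. The interval of COL10A1 (ENSDARG00000101535), at 0.80 to 1.43 CPM, did so too. All 22 cartilage collagen and matrix IDs passed the filter, but not all were well above it. The cartilage matrix gene *ucmaa* was at 0.89 to 1.76 CPM, with an interval of 0.609-fold to 1.60-fold.

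*phospho1*, a phosphatase that releases phosphate for mineralisation inside matrix vesicles, was at 11.4, 12.4 and 13.5 CPM in wild-type and 9.88, 8.61 and 6.83 CPM in the mutant. Every mutant library was below every wild-type library. The fitted fold was 0.676 (log2 -0.56 ± 0.16, SE), with an interval of 0.528-fold to 0.865-fold and an adjusted p of 0.114, and in the edgeR likelihood ratio test the adjusted p was 0.0377. COL10A1 (ENSDARG00000054753), a type X collagen that osteoblasts use in fish, was at 200, 170 and 156 CPM in wild-type and 158, 217 and 207 CPM in the mutant. Its levels overlapped, at a fitted fold of 1.11 and an adjusted p of 0.630. The fitted values of *alpl*, which codes for alkaline phosphatase, and of ENTPD5 (ENSDARG00000053481), listed here as a mineralisation gene, were -0.17 and -0.10, also with overlap.

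Among the fibroblast matrix genes, 8 of 9 fitted values were above 0, with a median of 0.07. *col1a1a*, a chain of the type I collagen of skin, tendon and bone, was at 3277, 3073 and 3082 CPM in wild-type and 3483, 3668 and 3623 CPM in the mutant. The genotypes did not overlap, at a fitted fold of 1.14 (log2 0.19 ± 0.07, SE), with an interval of 1.03-fold to 1.27-fold and an adjusted p of 0.202. Its partner *col1a2* did not overlap either, with 1326 to 1429 CPM in wild-type, 1439 to 1505 CPM in the mutant and a fitted value of 0.10. COL1A1 (ENSDARG00000035809) overlapped, with a fitted value of 0.11. Of the counts of the 3 type I genes, *col1a1a* took 48.0% to 48.4% in wild-type and 49.3% to 50.1% in the mutant, which do not overlap. Shares of other genes within their own type did not overlap either. The mutant was lower for *col1a2*, *col11a1b* and *col9a3*. It was higher for COL11A1 (ENSDARG00000026165) and, among the matrilins, MATN3 (ENSDARG00000069265). The remaining shares of these types, and those of the COL2A1 and MATN3 pairs, overlapped. Shares within a type add up to a whole, so a rise in some genes goes with a fall in others. These comparisons were chosen after their values were seen, and 3 libraries against 3 cannot give a two-sided exact p under 0.1. The other 6 genes (*col5a1*, COL5A2, *dcn*, *lum*, *sparc* and *postnb*) had fitted values from -0.04 to 0.09, and of these only *lum* did not overlap, at 113 to 116 CPM in wild-type and 117 to 122 CPM in the mutant. The 2 FMOD IDs that could stand for *fmoda*, a small proteoglycan of tendon, had fitted values of -0.22 and 0.02 with overlap, and are in none of the counts.

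Across the 44 members tested, the levels of 5 did not overlap with the mutant higher (*col9a1b*, MATN3 ENSDARG00000069245, *col1a1a*, *col1a2* and *lum*), and the levels of 2 did not overlap with the mutant lower (*sox6* and *phospho1*). Over all genes tested, 11% were without overlap and higher and 10.2% were without overlap and lower.

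Among the 5 groups, the libraries of the mutant differed among themselves most in the cartilage matrix genes. In this group, all 13 genes had a larger coefficient of variation in the mutant than in wild-type, with medians of 22.4% and 8.34%, while 66.6% of all genes tested had a larger one in the mutant, with medians of 12.0% and 8.57%. It was also larger in the mutant for 6 of 8 osteoblast genes, with medians of 17.2% and 11.7%. It was larger for 3 of 9 cartilage collagens, 2 of 5 regulators and 3 of 9 fibroblast genes. For 9 of the 13 cartilage matrix genes *miR-34a-/-* replicate 1 was lower than the mean of the other mutants, by over 1.5-fold for 5. It was over 1.5-fold higher for 1, *acanb* (log2 0.64), while the other aggrecan gene, *acana*, was lower (log2 -0.55). Against the mean of mutant replicates 2 and 3, the median log2 ratio of mutant replicate 1 was -0.29 over the cartilage matrix genes, -0.09 over the cartilage collagens, 0.14 over the regulators and -0.01 over all genes tested. None of the 5 regulators was lower there than in the mean of the other mutants. Many genes outside the set also differed there. Of the 19240 genes tested, 1334 were over 1.5-fold lower there than in that mean and 1664 over 1.5-fold higher. Over the 500 most variable genes, its root mean square log2 distance from mutant replicates 2 and 3 was 1.33 and 1.57. These 2 were 0.87 apart. Over the 44 members it was not set apart by how often it was the extreme library. It was the lowest of the 6 for 10 members and the highest for 9, against 21.1% and 20.5% of all genes. Wild-type replicate 3 was the lowest for 11 of the 44 members, against 14.69% of all genes. Mutant replicate 2 was the highest for 16 of the 44, against 14.04% of all genes.

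**Figure D3:**
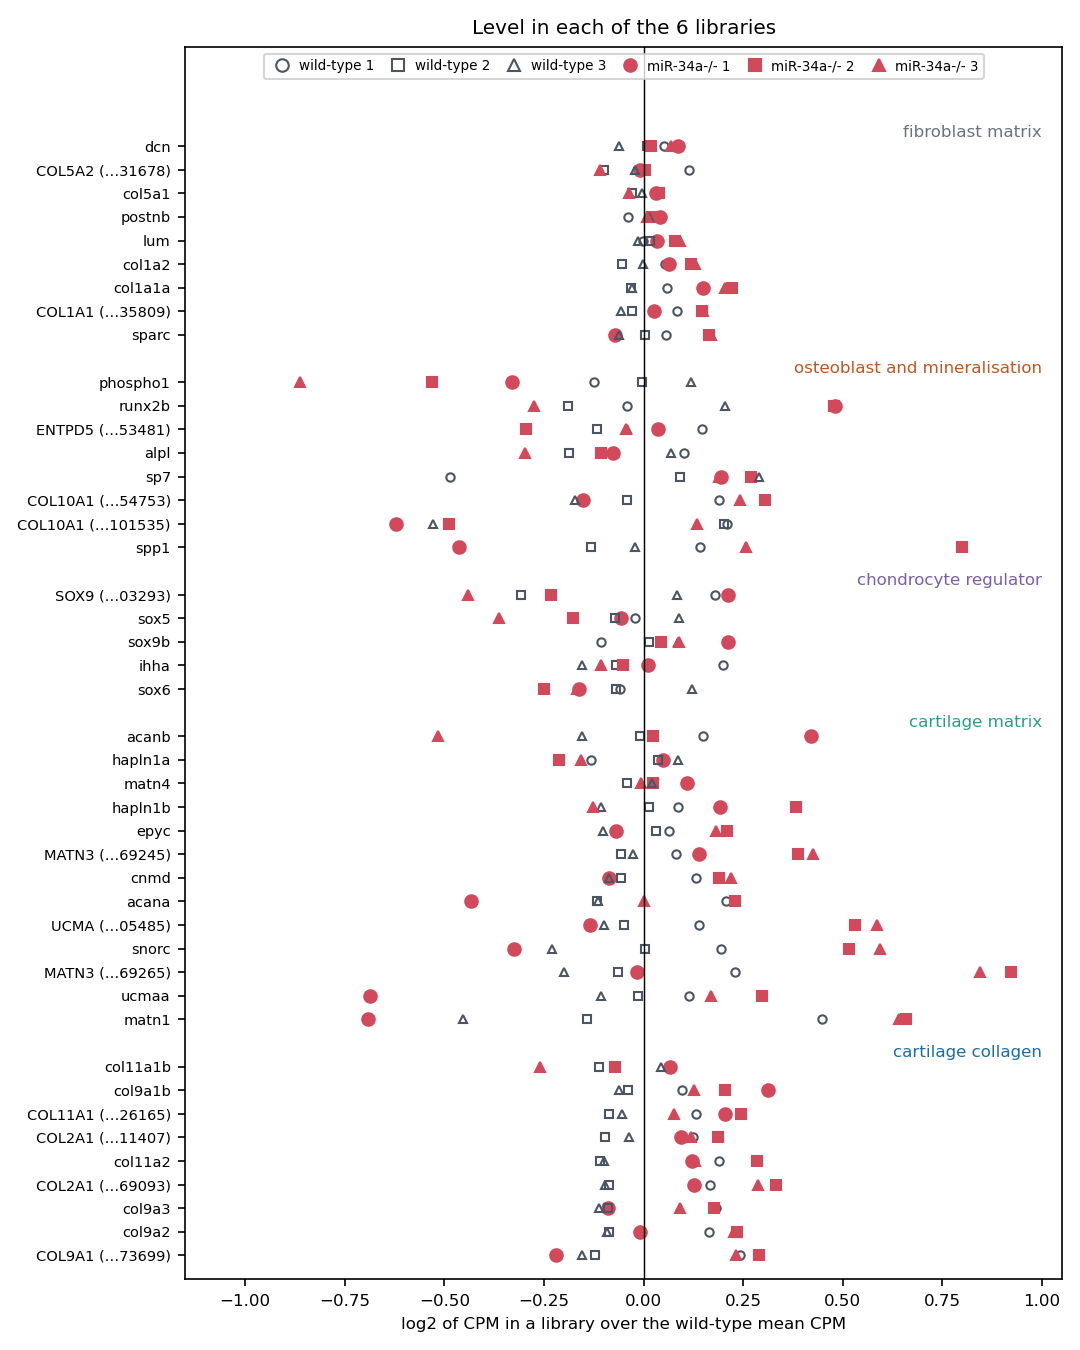
Level of each of the 44 tested members in each library, as log2 of its CPM over the wild-type mean (horizontal axis); open symbols are wild-type, filled symbols *miR-34a-/-*, and circles, squares and triangles are replicates 1, 2 and 3. Among the cartilage matrix genes the filled circle of mutant replicate 1 lies to the left of the other mutants for 9 of 13 genes, by most for *matn1*, while the fibroblast genes lie close together.

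The clearest case, named here after its values were seen, was *matn1*, which codes for cartilage matrix protein (matrilin-1). It was at 532, 354 and 285 CPM in wild-type and at 242, 617 and 609 CPM in the mutant. Mutant replicates 2 and 3 were the highest of the 6 libraries and mutant replicate 1 the lowest, and the fitted fold of 1.25 had an interval of 0.761-fold to 2.06-fold. *snorc*, a transmembrane proteoglycan of chondrocytes, was at 23.9, 20.9 and 17.8 CPM in wild-type and 16.6, 29.8 and 31.5 CPM in the mutant, the same arrangement. The summed level of a list of 11 photoreceptor IDs moved with it, at 817, 553 and 354 CPM in wild-type and 208, 876 and 900 CPM in the mutant. The 6 libraries ranked alike for *matn1* and this sum except that mutant replicates 2 and 3 changed places. The list includes *gnat2*, at 16.0 CPM in mutant replicate 1 and 45.4 to 120 CPM in the other 5 libraries, and *opn1sw2*, at 17.8 CPM and 52.2 to 123 CPM. Of the 10 photoreceptor IDs tested, 0 were called. Markers of notochord (324 to 372 CPM summed) and otic vesicle (169 to 201 CPM), which also use some of these collagens, varied less as sums, with 0 of 7 and 0 of 5 called. Single markers spread more than these sums. The log2 ratio of mutant replicate 1 to the mean of the other mutants ran from -0.82 (*vgll2b*) to 0.42 (*col8a1a*) for notochord. Among the tested otic vesicle genes it ran from -0.43 (*otogl*) to 0.67 (*tecta*). The fast muscle sum ranked the libraries as the photoreceptor sum did, over a narrower range. It was at 40346, 39840 and 39335 CPM in wild-type and 36843, 44001 and 47068 CPM in the mutant. The liver sum was also lowest in mutant replicate 1, at 7884 CPM. The other marker sums were lowest in a wild-type library. What part any of this has in the cartilage values was not tested.

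**Figure D4:**
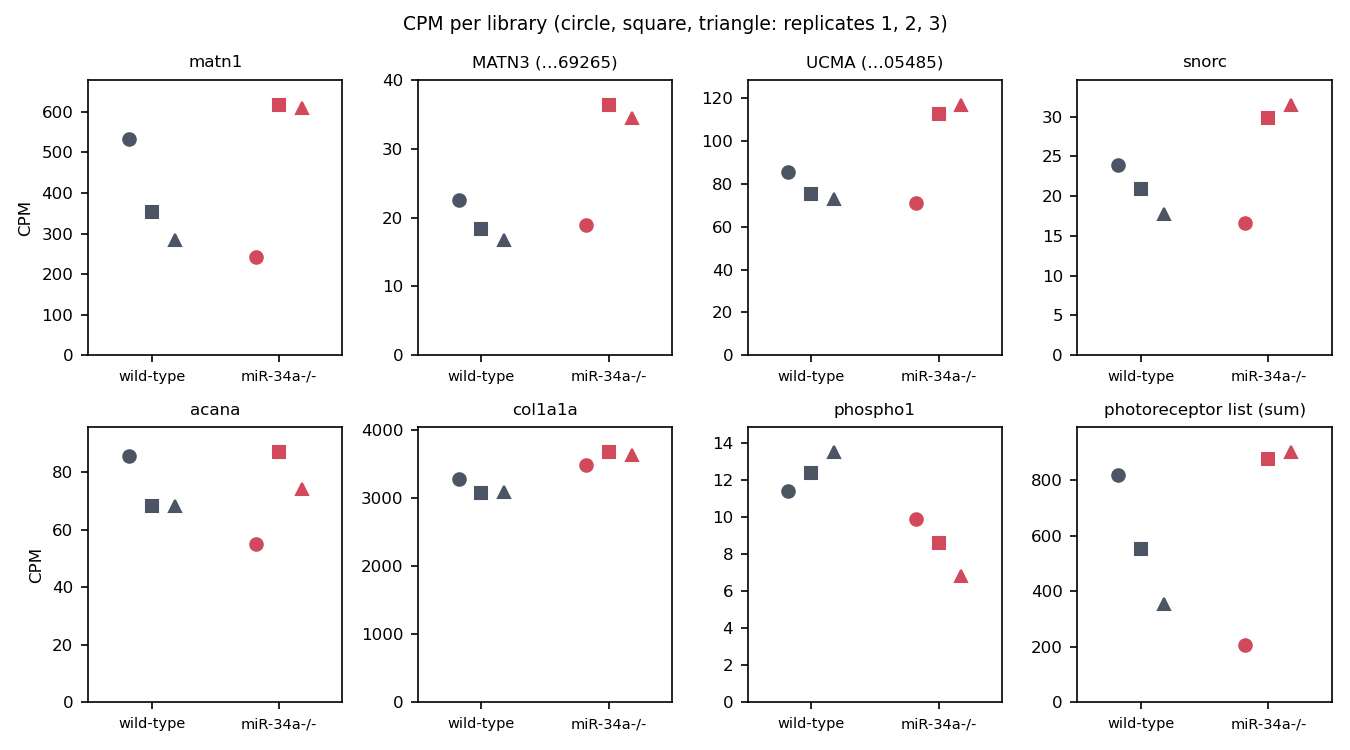
CPM (vertical axes, from 0) of 7 members and of the summed photoreceptor list in the 3 wild-type and 3 *miR-34a-/-* libraries, with circles, squares and triangles for replicates 1, 2 and 3. For *matn1*, UCMA, *snorc*, *acana* and the photoreceptor list, mutant replicate 1 is the lowest library; for *col1a1a* and *phospho1* the genotypes do not overlap.

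Without *miR-34a-/-* replicate 1, 3 of 44 members were called, and 7.74% of all genes were. MATN3 (ENSDARG00000069265) was higher in the mutant at 1.82-fold (log2 0.87 ± 0.11, SE, adjusted p = 7.3e-05, edgeR), and *matn1* at 1.57-fold (log2 0.65 ± 0.15, SE, adjusted p = 0.00945). *phospho1* was lower at 0.616-fold (log2 -0.70 ± 0.16, SE, adjusted p = 0.00639). Without the fold threshold, 10 members had an adjusted p under 0.05, against 15.6% of all genes. The other 7 were UCMA (ENSDARG00000005485) at 1.47-fold, *snorc* at 1.46-fold, MATN3 (ENSDARG00000069245) at 1.32-fold, COL2A1 (ENSDARG00000069093) at 1.24-fold, COL10A1 (ENSDARG00000054753) at 1.21-fold, *col1a1a* at 1.16-fold and *sox5* at 0.829-fold. This fit sets 2 mutant libraries against 3 wild-type libraries. Against the other mutants, the library left out was lower for *matn1* (log2 -1.34) and MATN3 (ENSDARG00000069265) (log2 -0.90), and higher for *phospho1* (log2 0.36). Leaving it out therefore moves these fitted values away from 0, so the 3 calls are not separate support for a difference. Leaving out any 1 of the other 5 libraries gave 0 called members.

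The machinery around these genes was counted from lists of collagen processing, proteoglycan synthesis, skeletal signalling, tendon, remodelling and further collagens. Of the 92 tested genes in these lists, 1 was called. This was *fgfr3*, a fibroblast growth factor receptor that restrains chondrocytes in the growth plate of mouse and human, and that other embryonic tissues also use. It was at 85.2, 93.7 and 90.8 CPM in wild-type and 50.1, 53.1 and 48.0 CPM in the mutant. All 3 mutant libraries were below the wild-type range, at a fitted fold of 0.56 (log2 -0.84 ± 0.07, SE) and an adjusted p of 0.000304. The remaining 13 tested genes of skeletal signalling were not called.

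SERPINH1 (ENSDARG00000019949), the collagen chaperone Hsp47 of the endoplasmic reticulum, had the only other adjusted p under 0.05 in these lists, and is named for that reason. It was at 127, 147 and 128 CPM in wild-type and 171, 170 and 208 CPM in the mutant, without overlap, at 1.37-fold and an adjusted p of 0.0407. Of the 26 tested genes of collagen processing, 17 had fitted values above 0. None of the 23 other collagens was called, with a median of -0.02, and none of the 13 genes of proteoglycan synthesis, 6 of tendon or 10 of osteoclasts and remodelling. Another 12 IDs carry a name that more IDs share than the lists hold and are in no count. Of these, THBS4 (ENSDARG00000020072), a thrombospondin of muscle attachments and tendon, was called. It was at 105, 98.8 and 95.5 CPM in wild-type and 165, 172 and 174 CPM in the mutant, at 1.71-fold and an adjusted p of 0.000304. Among 50 tested marker genes of other cell types 4 were called, all erythroid and all higher in the mutant (*alas2*, *hbae1.1*, *hbae3* and *hemgn*), and the summed level of the basal skin list was at 111% of wild-type, with 0 of 6 called.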

How the data were processed

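The authors deposited raw counts per Ensembl gene for the 6 libraries. Per the labels and the study's methods, poly-A RNA was sequenced, reads were trimmed with Trim Galore 0.4.4 and mapped with STAR 2.7.8 to danRer11. The counting mode, use of strand and annotation release are not given in the sources used here, so counts of near-identical copies are uncertain. No coordinates or sequences are printed, since no genome of that build was used.

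The tools were edgeR 4.0.16, DESeq2 1.42.0 and limma 3.58.1 (under R 4.3.3), with tables made in Python. Low genes were removed with filterByExpr, libraries were scaled by TMM, and genotype was tested across all genes with the edgeR quasi-likelihood test without covariates, with Benjamini-Hochberg adjustment. Intervals of 95% use the standard error and degrees of freedom of that fit. The script was checked on simulated counts. CPM floors of 3 counts cover counting error only. No pair of replicates agreed within sampling noise (lowest chi-square per degree of freedom 1.73), so all were kept.

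The members and all lists were chosen with earlier results of these data known. Members given library by library were those called or with an adjusted p under 0.05 (none), the 1 with the highest mean CPM in each group (CPM also depends on transcript length), and those of smallest p up to 14 in all. Others named with values were chosen after these had been seen. From the other lists called genes are named.

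The alternatives were other scalings, filters, tests and thresholds, the replicate number as a block, leaving out each library, and, added after seeing the data, the IDs matched by zebrafish symbol alone.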

Additional observations from a re-analysis of the deposited data

How the results depend on the processing

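The count of called members stayed at 0 of 44 under DESeq2 size factors and TMM without the members or without hemoglobin genes. It was 0 of 44 too in the likelihood ratio test of edgeR, the Wald test of DESeq2 and with no fold threshold. It was also 0 of the 45 members tested without a filter and of the 39 with a mean of at least 50 counts. In glmTreat, at 2-fold and for the 28 matched by zebrafish symbol it was 0 as well. These 3 settings could not give more, since no member had an adjusted p under 0.05 in the main fit. Leaving out 1 library gave 0 to 3, with 3 only without *miR-34a-/-* replicate 1, where *phospho1* stood at -0.70 and MATN3 (ENSDARG00000069265) at 0.87. Over 210 refitted values of the 14 members given by library, 0 reversed, but most of these 14 were chosen by smallest p. Most of the 210 come from refits of all the libraries, and those of glmTreat equal the main fit, so they had little room to reverse. Among the other members tested, the sign of *acanb* reversed in 3 alternatives, and those of *acana*, *ucmaa* and *col5a1* in 2. It reversed in 1 for *ihha*, SOX9 (ENSDARG00000003293), COL5A2 (ENSDARG00000031678) and *spp1*. Over all genes, 362 calls became 217 with a mean of at least 50 counts, 627 in the likelihood ratio test, 122 in glmTreat and 223 at 2-fold. Leaving out 1 library gave 180 to 1504. It gave 180, 191 and 181 without wild-type replicates 1, 2 and 3, 1504 without mutant replicate 1 and 214 without mutant replicate 2. The pathway count of 1 became 0 in glmTreat and at 2-fold, 2 with no fold threshold and 1 to 5 leaving out 1 library (5 without mutant replicate 1), and the marker count of 4 became 4 to 7 (7 without the same library). The cause of these changes was not tested.

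With the replicate number as a block (replicate block), 216 genes and 0 members were called. Same-numbered libraries did not deviate together (correlations of -0.067, 0.0012 and -0.18). The labels do not say whether the numbers pair the libraries, and correlations over so few libraries cannot settle it. At 10273343 to 16369150 counts per library, *runx2b*, *sp7* and *spp1* had intervals past 1.5-fold, so a difference of that size is not excluded there. The interval of *matn1*, at 2714 to 9453 counts, reached past it too.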
